A study of Mus musculus with 28 samples.

Results

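The dual-specificity phosphatase genes Dusp1, Dusp2, Dusp4, Dusp5, Dusp6, Dusp10, Dusp11 and Dusp16 were followed in CD4+ T cells from the small intestinal lamina propria of mice. They were taken by symbol from the deposited expression table, where they are 8 of 25124 genes and 8 of the 24 with a Dusp symbol. All 8 passed the filter on low values (6 or more libraries at 1 TPM or above), which left 12182 genes. TPM gives the abundance of a transcript relative to the sum over its library.

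Each of the 28 libraries holds live CD45+ CD90.2+ TCRb+ CD4+ cells sorted from mice with a ZsGreen reporter of T-bet, which the control mice carried too. Mice were either germ-free (GF), without microbes, or colonised and specific-pathogen-free (SPF). They were given an isotype control or aCD3, an antibody that binds CD3 and so triggers the T cell receptor. Of the 6 SPF isotype and 6 SPF aCD3 libraries 3 each came from females and 3 from males. The 10 GF isotype libraries came from 5 females and 5 males, and the 6 GF aCD3 libraries from 1 female and 5 males. Ages, the antibody dose and the time from injection to sampling were not used here. The labels name replicates by sex and number, F1 or M3 for example, and do not say whether each is a single animal, so p-values measure the spread between these libraries.

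Dual-specificity phosphatases remove phosphate from both the tyrosine and the threonine that switch a MAP kinase on. Most are transcribed in response to the kinases they turn off, so their transcripts work as a feedback brake on ERK, JNK and p38 signalling, which in T cells runs downstream of the antigen receptor and Ras. Dusp1, Dusp2, Dusp4 and Dusp5 encode nuclear enzymes, and that of Dusp5 is selective for ERK. Dusp6 encodes a cytoplasmic phosphatase of ERK. Dusp10 and Dusp16 encode phosphatases that act mainly on JNK and p38. Dusp11 encodes an atypical member that removes phosphates from the 5′ ends of RNA and is not a MAP kinase phosphatase.

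The promoters of the members that were lower under aCD3 in SPF mice are shown first. RefSeq sequence of build GRCm38.p6 was at hand for 7 of the 8 members, Dusp4 being the exception. Each line gives the 250 bases before the start of the gene's RefSeq entry, 5′ to 3′ on the gene's strand. These were chr17:26508473-26508722 (minus strand) for Dusp1, chr19:53528895-53529144 (plus strand) for Dusp5, chr10:99262981-99263230 (plus strand) for Dusp6 and chr1:184034131-184034380 (plus strand) for Dusp10. Capitals mark matches to the motifs searched. In the GENCODE M21 annotation Dusp1 reaches upstream to position 26562128 and Dusp10 begins at 184013302. Sequence before those starts was not searched.
Dusp1: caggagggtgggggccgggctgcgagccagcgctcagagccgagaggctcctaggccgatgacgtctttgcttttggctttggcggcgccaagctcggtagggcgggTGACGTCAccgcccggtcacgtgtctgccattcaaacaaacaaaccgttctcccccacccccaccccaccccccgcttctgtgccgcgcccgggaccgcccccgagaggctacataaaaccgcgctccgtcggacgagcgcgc
Dusp5: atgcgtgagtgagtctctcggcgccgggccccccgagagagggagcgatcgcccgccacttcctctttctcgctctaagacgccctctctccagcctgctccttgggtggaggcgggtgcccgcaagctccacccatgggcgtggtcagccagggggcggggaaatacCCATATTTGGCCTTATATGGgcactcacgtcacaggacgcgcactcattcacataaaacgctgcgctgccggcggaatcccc
Dusp6: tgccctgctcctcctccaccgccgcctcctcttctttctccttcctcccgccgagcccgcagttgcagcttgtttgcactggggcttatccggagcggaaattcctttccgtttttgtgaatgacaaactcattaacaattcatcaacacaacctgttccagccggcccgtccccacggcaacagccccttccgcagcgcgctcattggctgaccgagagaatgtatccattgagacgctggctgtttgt
Dusp10: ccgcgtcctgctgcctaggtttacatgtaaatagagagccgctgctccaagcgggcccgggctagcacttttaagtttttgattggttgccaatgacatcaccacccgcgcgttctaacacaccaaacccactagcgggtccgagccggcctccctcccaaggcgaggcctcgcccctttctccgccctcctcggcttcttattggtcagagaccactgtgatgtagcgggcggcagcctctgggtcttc

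Motifs were searched on both strands from 250 bases before to 50 bases after the start: TGACGTCA (the CRE, bound by CREB and ATF factors), TGANTCA (the AP-1 site), GCGTGGGCG (an EGR site) and the CArG box, which serum response factor binds. The CRE was found in Dusp1, beginning 143 bases before the start. Over 32851 mouse promoters of the same length, 1.79% hold it. Dusp5 holds 2 CArG boxes that do not overlap, beginning 82 and 72 bases before the start, against 1.63% of promoters with at least 1. These letters were not found in the windows of Dusp2, Dusp6, Dusp10, Dusp11 or Dusp16. The AP-1 motif is in 7.81% and the EGR motif in 0.612% of promoters, and neither was in the windows of the 7 members. These matches are descriptions of the sequence.

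Facts of the whole series touch every value. Reads in genes, recovered from the TPM steps, ran from 6765529 to 17860612 per library, and the 8 members held between 262 and 23177 reads each per library. Histone genes took 4.05 to 7.04% of TPM in SPF isotype and 23.8 to 26.8% in SPF aCD3. As TPM is a share, the median tested gene was 0.35 lower on the log2 scale in SPF aCD3. Scaling by median of ratios moved that median to -0.01, and the differences named below as after or with median-of-ratios scaling are on that scale. The GF aCD3 group was split: replicates M1, M2 and M5 had 498, 452 and 527 TPM of Lag3, an activation-induced receptor, whereas F1, M3 and M4 had 9.59, 17.0 and 12.3 TPM, within or near the 5.41 to 18.5 TPM of the isotype groups. Their histone shares, 5.39 to 7.46%, were also at the isotype level. Results for the members in GF aCD3 are given with all 6 libraries and, for most, without F1, M3 and M4. The pathway lists are given with all 6 only. Leaving these libraries out rests on genes that moved with aCD3, so p-values without them are descriptions and not tests of the aCD3 response. All SPF libraries carry sample numbers 1 to 12 and GF libraries 25 to 33 or 48 to 54, so colonisation cannot be told apart from these blocks of sample numbers; the labels do not say what the numbers stand for.

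TPM was divided by the whole genomic span of a gene, so levels of different genes were compared as reads per exonic kilobase per 1000000 reads in genes, with exon lengths from GENCODE M21. On that scale Dusp1 was the most abundant member in SPF isotype cells, at 581 ± 66.9 (SD, n = 6). Dusp5 with 144 ± 31.8 and Dusp10 with 122 ± 16.8 followed and did not differ beyond their SDs. Dusp2 with 51.4 ± 9.74 and Dusp6 with 42.0 ± 2.22 also lay within their SDs of each other. Dusp11 had 31.6 ± 2.02, Dusp4 13.8 ± 4.07 and Dusp16, the lowest, 7.03 ± 2.04. In GF isotype cells the order was the same, from 498 ± 96.1 for Dusp1 to 4.99 ± 0.899 (n = 10) for Dusp16. In SPF aCD3 cells the members lay closer together. Dusp1 was at 164 ± 20.8, Dusp5 at 127 ± 17.5, Dusp2 at 56.8 ± 7.23, Dusp10 at 44.4 ± 6.01, Dusp11 at 38.03 ± 1.36, Dusp4 at 31.8 ± 7.70 and Dusp6 at 25.99 ± 1.38, with Dusp16 again lowest at 9.62 ± 1.95 (n = 6). Dusp6 thus stood above Dusp4 in the SPF isotype libraries and had the lower mean in the SPF aCD3 libraries.

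**Figure D1:**
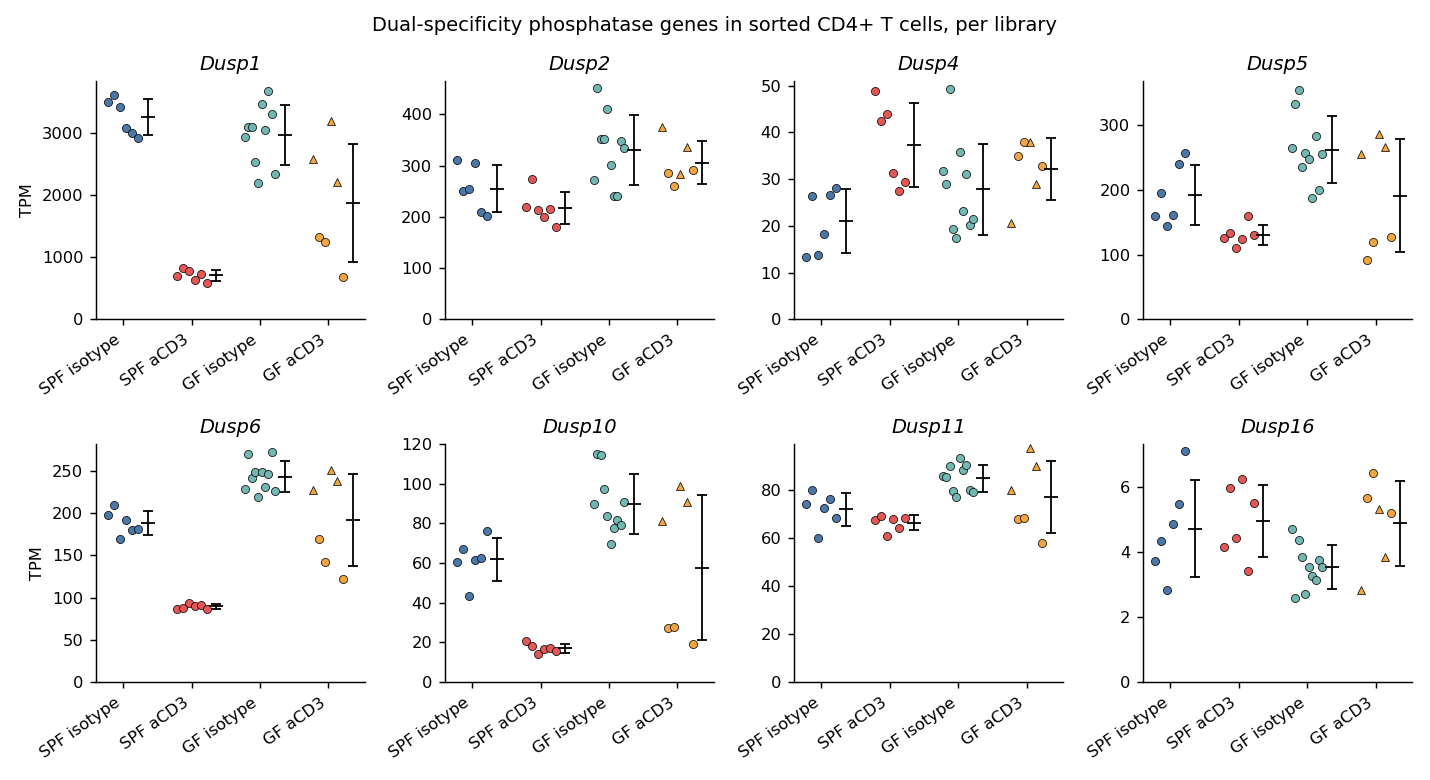
TPM of each of the 8 genes per library (points) in the 4 groups, with the group mean and SD beside them; triangles are GF aCD3 replicates F1, M3 and M4, and each panel has its own axis from 0. Dusp1, Dusp6 and Dusp10 did not overlap between SPF isotype and SPF aCD3, and in GF aCD3 the triangles lie above the other 3 libraries for these genes.

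The comparison of aCD3 with isotype in SPF mice asks how receptor engagement changes these transcripts where a flora is present. Dusp1, Dusp10, Dusp6 and Dusp5 fell and Dusp4 rose. Thus 4 of the 8 members were called lower and 1 higher by limma with Benjamini-Hochberg adjustment over all genes. Of all tested genes 64.8% were called, 50.7% lower and 14.2% higher, so the members' count was near the background. By size of the difference, Dusp1 lay at the 0.780th and Dusp10 at the 1.80th percentile of log2 fold change among the 12182 genes, and Dusp4 at the 93.7th. After median-of-ratios scaling 60.0% of genes were called, and 6 of the 8 members, 3 lower and 3 higher. Of all 12182 genes 3628 were then called lower and 3679 higher. In the bulk values, fewer cells of a type and less RNA per cell cannot be told apart.

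Dusp1 (chr17:26505591-26508472, mm10, minus strand), the immediate early phosphatase of p38 and JNK, had from 2926 to 3615 TPM in SPF isotype, with a median of 3247. In SPF aCD3 it had from 588 to 832 TPM, with a median of 713. Every aCD3 library was below every isotype library, as was so for 41.9% of tested genes in either direction. Dusp1 fell by 2.20 on the log2 scale (SE 0.23, adjusted p = 4.85e-07, limma), and the difference was -1.79 after median-of-ratios scaling.

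Dusp4 (chr8:34807610-34819894, plus strand), a nuclear phosphatase of ERK and JNK, went the other way. It ran from 13.3 to 28.2 TPM in SPF isotype (median 22.4) and from 27.4 to 48.9 TPM in SPF aCD3 (median 36.9). The groups overlapped at their edges, with 5 of the 6 aCD3 libraries above every isotype library. Dusp4 rose by 0.82 (SE 0.23, adjusted p = 0.00352, limma), and by 1.22 with median-of-ratios scaling.

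Dusp2 (chr2:127336159-127338377, plus strand), a nuclear phosphatase found mainly in blood cells, had 255 ± 46.0 TPM in SPF isotype and 217 ± 31.2 in SPF aCD3 (SD, n = 6 each). The groups overlapped. Its difference was -0.22 (95% confidence interval -0.47 to 0.03, adjusted p = 0.119, limma) in TPM and 0.19 (-0.07 to 0.45, adjusted p = 0.189) after median-of-ratios scaling, so its sign depended on the scale.

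Dusp5 (chr19:53529145-53541809, plus strand) ran from 145 to 256 TPM in SPF isotype, with a median of 178. In SPF aCD3 it ran from 110 to 159 TPM, with a median of 128, and 5 of the 6 libraries lay below every isotype library. Dusp5 fell by 0.54 (SE 0.23, adjusted p = 0.0427, limma). That call rested on the scale: after median-of-ratios scaling the difference was -0.12 (adjusted p = 0.584). It was also lost when any 1 of 8 libraries was left out, with adjusted p up to 0.113.

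Dusp6 (chr10:99263231-99267489, plus strand) had the lowest coefficient of variation of the 8 in both SPF groups, 7.60% and 3.24%. It ran from 169 to 209 TPM in SPF isotype (median 187) and from 86.7 to 94.0 TPM in SPF aCD3 (median 88.9), with no overlap. Dusp6 fell by 1.06 (SE 0.12, adjusted p = 1.09e-06, limma), and differed by -0.65 after median-of-ratios scaling.

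Dusp10 (chr1:184034381-184075636, plus strand) ran from 43.4 to 76.1 TPM in SPF isotype, with a median of 62.0. In SPF aCD3 it ran from 14.2 to 20.8 TPM, with a median of 17.1, again without overlap. Dusp10 fell by 1.78 (SE 0.28, adjusted p = 1.46e-05, limma), and its difference was -1.39 after median-of-ratios scaling. Dusp16 (chr6:134715468-134792628, minus strand), the other phosphatase of JNK and p38, did not follow it. It had 4.71 ± 1.48 TPM in SPF isotype and 4.94 ± 1.12 in SPF aCD3 (SD, n = 6 each), overlapping. The difference was 0.08 (95% confidence interval -0.25 to 0.40, adjusted p = 0.694, limma), and 0.43 (adjusted p = 0.0300) after median-of-ratios scaling.

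Dusp11 (chr6:85942269-85961667, minus strand), the RNA phosphatase, had 71.7 ± 6.90 TPM in SPF isotype and 66.2 ± 3.16 in SPF aCD3 (SD, n = 6 each). The difference in TPM was -0.11 (adjusted p = 0.317, limma). With median-of-ratios scaling it turned to 0.30 (adjusted p = 0.000157), so no direction is given for Dusp11.

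**Figure D2:**
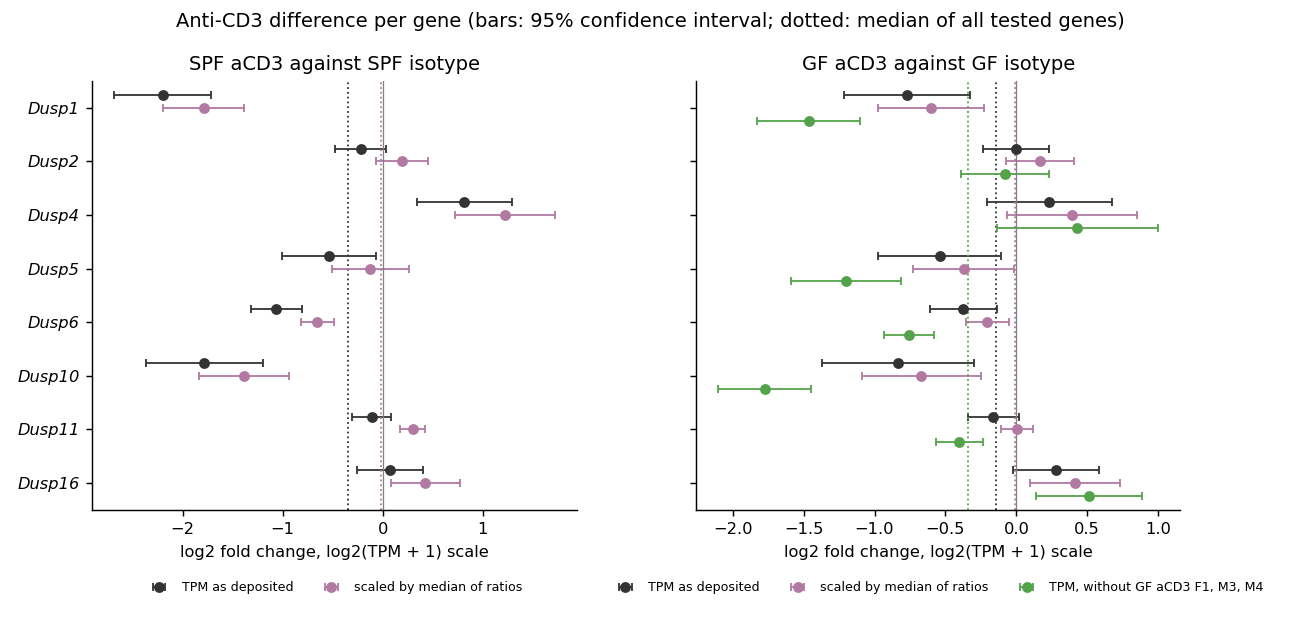
Log2 fold change of aCD3 against isotype on the log2(TPM + 1) scale (x axis) for each gene (y axis) in SPF and GF mice, with 95% confidence intervals from limma; dotted lines mark the median of all tested genes in the same fit. Dusp1, Dusp6 and Dusp10 lie left of 0 on each scale in SPF mice and Dusp4 lies right of it, whereas Dusp2 and Dusp11 change side with the scaling.

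Ratios of 2 members within a library do not depend on how the library is scaled. The TPM ratio of Dusp1 to Dusp11 ran from 39.5 to 56.9 in SPF isotype and from 8.63 to 12.9 in SPF aCD3. The ratio of Dusp10 to Dusp5 ran from 0.261 to 0.383 in SPF isotype and from 0.109 to 0.165 in SPF aCD3. The ratio of Dusp4 to Dusp6 ran from 0.0671 to 0.156 in SPF isotype and from 0.300 to 0.565 in SPF aCD3. None of these 3 ratios overlapped between the SPF groups, on any scaling of whole libraries. These pairs were chosen after the values were known, and no test is given.

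**Figure D3:**
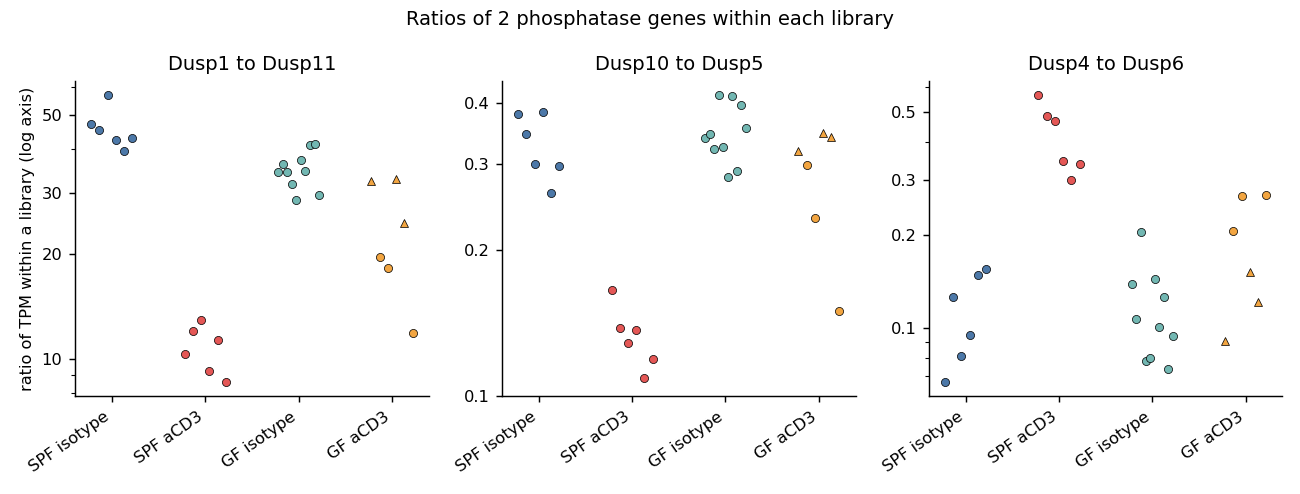
TPM ratio of 2 genes within each library (log axis) in the 4 groups; triangles are GF aCD3 replicates F1, M3 and M4. SPF aCD3 libraries lie apart from all isotype libraries in each panel, and the GF aCD3 circles lie on the SPF aCD3 side of the triangles.

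Markers of other cells moved with the aCD3 groups in SPF mice. Summed TPM of 10 B and plasma cell genes was 96.7 to 277 in isotype and 3.04 to 10.7 in aCD3, and 2 of the 4 tested genes fell. Summed TPM of 10 stromal genes was 15.3 to 51.5 and 3.31 to 6.38, with 4 of 4 tested genes lower. That of 7 mast and NK cell genes was 23.6 to 36.05 and 6.42 to 8.81, with 3 of 4 tested genes lower and 1 higher. That of 12 epithelial genes was 7.80 to 25.02 and 5.08 to 12.5, with 2 of 8 lower. That of 14 myeloid genes was 11.4 to 21.7 in isotype and 64.6 to 153 in aCD3, with 1 of 4 tested genes higher and 1 lower. That of 2 CD8 T cell genes was 5.68 to 13.5 and 9.75 to 23.8, with 1 of 2 higher, and that of 6 erythroid genes was 2.29 to 10.2 and 0.716 to 1.28, with 1 tested and not called. Cd14, S100a8 and S100a9 were at 0 in every SPF isotype library and Mcpt1 and Mcpt2 in every library of all groups. In GF mice the isotype and aCD3 ranges were 11.3 to 120 and 8.34 to 102 for B and plasma cell genes, 7.81 to 14.2 and 3.70 to 12.3 for stromal genes, and 19.6 to 58.2 and 27.2 to 81.7 for myeloid genes. They were 10.2 to 52.6 and 6.03 to 21.99 for mast and NK cell genes, 6.56 to 75.7 and 6.68 to 33.5 for epithelial genes, 1.25 to 61.2 and 3.47 to 13.01 for CD8 T cell genes, and 1.05 to 2.69 and 1.06 to 2.08 for erythroid genes. Of the genes tested in these 7 lists, 1 of 4 mast and NK cell genes was called higher and 1 lower in GF aCD3, 1 of 8 epithelial genes was called lower, and none of the others was called. The 10 T cell genes summed to between 1868 and 2504 TPM over all 28 libraries, so the labelled cell type was present throughout. The part of these other cells in the members' differences was not tested.

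The same antibody comparison was made in GF mice. Dusp1 and Dusp6 were called lower by limma, 2 of the 8 members against 7.08% of all tested genes, and none was called higher. Both adjusted p-values lay just under 0.05, and both calls were lost in 25 of 28 fits that left out 1 library. In those 25 fits limma called 0 of all 12182 genes, with 2535 to 4425 at an unadjusted p under 0.05, so the loss was not particular to the 2 members. No member separated the groups without overlap, as 0.0657% of all genes did. With median-of-ratios scaling 9.65% of genes were called and Dusp1 (-0.60, adjusted p = 0.0431) and Dusp10 (-0.67, adjusted p = 0.0439) were the 2 members called. On that scale Dusp6 was at -0.20 (adjusted p = 0.0641) and Dusp5 at -0.37 (adjusted p = 0.133).

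The per-library values show the split. Dusp1 had 1329, 1245 and 688 TPM in GF aCD3 M1, M2 and M5, and 2585, 3188 and 2214 TPM in F1, M3 and M4. GF isotype libraries ran from 2187 to 3680 TPM, with a median of 3065. M1, M2 and M5 were thus below every isotype library, and F1, M3 and M4 lay within the isotype range. The difference was -0.77 (SE 0.22, adjusted p = 0.0481, limma) with all libraries and -1.46 (SE 0.17, adjusted p = 2.80e-07) without F1, M3 and M4. With median-of-ratios scaling and without these libraries it was -1.07 (adjusted p = 4.09e-05).

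Dusp10 had 27.3, 27.8 and 19.1 TPM in M1, M2 and M5, and 81.1, 98.99 and 90.8 TPM in F1, M3 and M4. In GF isotype it ran from 69.8 to 115 TPM (median 86.7), so the same 3 libraries stood below the isotype range. Its difference of -0.83 (SE 0.26, adjusted p = 0.0503, limma) became -1.77 (SE 0.16, adjusted p = 4.65e-09) without F1, M3 and M4, and -1.39 (adjusted p = 9.42e-09) with median-of-ratios scaling as well.

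Dusp6 had 169, 142 and 122 TPM in M1, M2 and M5, below every GF isotype library (219 to 272 TPM, median 244). F1, M3 and M4 had 227, 250 and 238 TPM. The difference was -0.37 (SE 0.11, adjusted p = 0.0496, limma), and -0.75 (SE 0.09, adjusted p = 1.38e-07) without those 3 libraries. Without them the median-of-ratios value for Dusp6 was -0.36 (adjusted p = 0.000676).

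Dusp5 showed the same split, with 91.5, 120 and 127 TPM in M1, M2 and M5 and 255, 286 and 266 TPM in F1, M3 and M4. GF isotype ran from 188 to 354 TPM, with a median of 256. Its difference was -0.54 (SE 0.21, adjusted p = 0.0803, limma) and, without F1, M3 and M4, -1.20 (SE 0.19, adjusted p = 8.60e-06). With median-of-ratios scaling and without these libraries Dusp5 was still lower, at -0.81 (adjusted p = 0.000814).

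Dusp4 ran from 17.5 to 49.2 TPM in GF isotype (median 26.1) and from 20.6 to 38.01 TPM in GF aCD3 (median 33.9), and every aCD3 library lay within the isotype range. Its difference was 0.23 (95% confidence interval -0.21 to 0.67, adjusted p = 0.440, limma). Without F1, M3 and M4 it was 0.43 in TPM (adjusted p = 0.184) and 0.81 after median-of-ratios scaling (adjusted p = 0.0142).

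Dusp16 had 3.54 ± 0.665 TPM in GF isotype (SD, n = 10) and 4.87 ± 1.31 in GF aCD3 (n = 6), a difference of 0.28 (adjusted p = 0.173, limma) that was 0.51 (adjusted p = 0.0178) without F1, M3 and M4, and 0.83 (adjusted p = 0.000114) with median-of-ratios scaling as well. Dusp11 had 84.7 ± 5.65 and 76.8 ± 14.9 TPM, with a difference of -0.16 (adjusted p = 0.177). Without the 3 libraries Dusp11 was at -0.40 in TPM (adjusted p = 0.000147) and -0.01 after median-of-ratios scaling (adjusted p = 0.885). Dusp2 had 330 ± 69.0 and 305 ± 42.1 TPM, and its difference of -0.0012 (95% confidence interval -0.23 to 0.23) changed sign with the scaling. Without F1, M3 and M4, 6 of the 8 members were called, 5 lower and 1 higher, against 59.6% of all genes.

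Leaving out F1, M3 and M4 leaves 3 male GF aCD3 libraries. The choice was made on Lag3 and histone genes with earlier results of these data known. Both also rose with aCD3 in SPF mice, so the choice itself selects libraries with an aCD3 difference. The p-values without F1, M3 and M4 are therefore not tests of that response. Within the GF block of sample numbers 25 to 33, which holds M1, M2 and M3 of GF aCD3, Dusp1 differed by -0.96 and Dusp10 by -0.83. Within numbers 48 to 54, which hold F1, M4 and M5, they differed by -0.65 and -0.66. Over the 8 members the median difference was -0.32 within numbers 25 to 33 and -0.12 within 48 to 54. Adjusted p-values within these blocks were at least 0.302 for each member (limma).

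**Figure D4:**
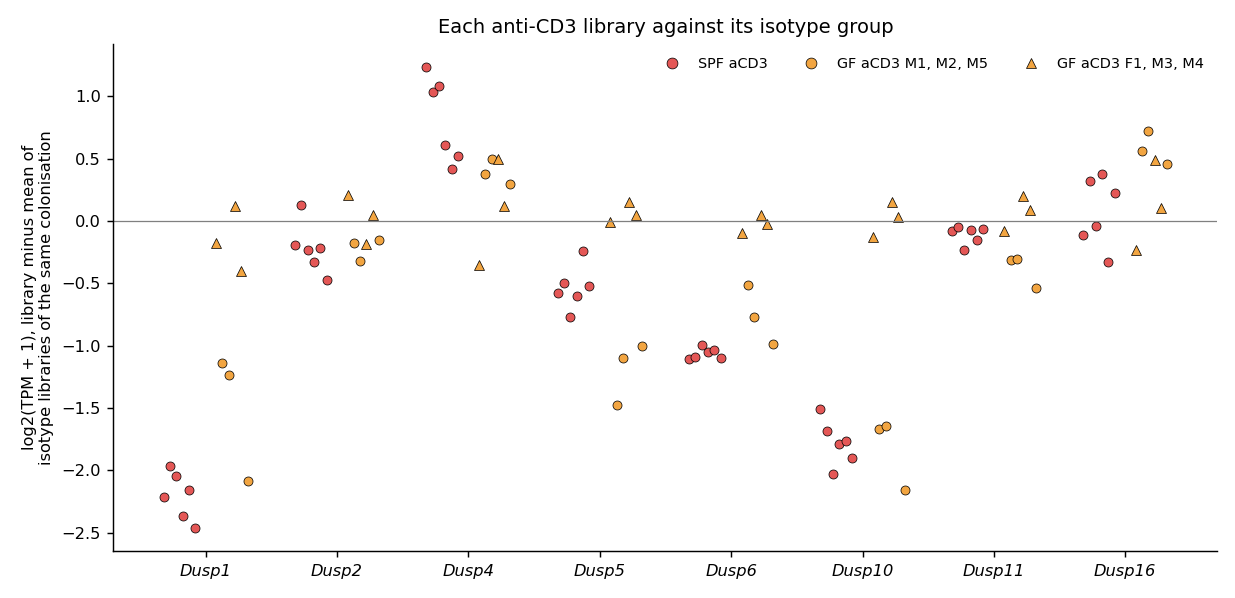
Log2(TPM + 1) of each aCD3 library minus the mean of the isotype libraries of the same colonisation (y axis), per gene (x axis). For Dusp1, Dusp5, Dusp6 and Dusp10, GF aCD3 M1, M2 and M5 (orange circles) lie below 0 with the SPF libraries, and F1, M3 and M4 (triangles) lie within about 0.4 of 0.

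The test of whether the aCD3 difference itself differed between GF and SPF mice called Dusp1 and Dusp6, 2 of the 8 members against 3.48% of all genes. The GF difference minus the SPF difference was 1.43 for Dusp1 (SE 0.32, adjusted p = 0.0221, limma) and 0.69 for Dusp6 (SE 0.17, adjusted p = 0.0304), so both fell less in GF mice. Leaving out 1 library at a time, the call for Dusp6 was lost in 6 of 28 fits (adjusted p up to 0.102), and that for Dusp1 in 1 of 28, without GF aCD3 F1 (adjusted p = 0.0785). For Dusp6 these were the fits without SPF isotype F2, SPF aCD3 M2 or M3, or GF aCD3 F1, M3 or M4. In that order they called 171, 108, 152, 32, 137 and 97 of all genes, where the full set called 424. Dusp10 had 0.95 (95% confidence interval 0.16 to 1.74, adjusted p = 0.101) and Dusp4 -0.59 (-1.24 to 0.06, adjusted p = 0.195). Dusp5 had -0.0040 (-0.64 to 0.64, adjusted p = 0.995) with all libraries. Its fall in GF mice was larger than that in SPF mice once F1, M3 and M4 were left out. Without F1, M3 and M4 limma called 0 of the 8, with 4 at an unadjusted p under 0.05, against 0.0493% of genes called. Dusp1 then had 0.74 (95% confidence interval 0.27 to 1.21, adjusted p = 0.267), Dusp6 0.31 (0.08 to 0.54, adjusted p = 0.370) and Dusp10 0.01 (-0.42 to 0.43, adjusted p = 0.997). After median-of-ratios scaling of all libraries Dusp11 was called as well, at -0.30 (adjusted p = 0.0275). That made 3 of the 8 members, where 11.3% of all genes were called. For markers of other cells in TPM, 2 of 4 tested stromal genes were called higher. So were 1 of 4 B and plasma cell genes and 1 of 4 mast and NK cell genes. Of myeloid genes 1 of 4 was lower, with 0 called in the other lists. Their part in these differences was not tested.

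Comparing the isotype groups shows the members in the absence of aCD3. Dusp2 and Dusp6 were called higher in GF than in SPF mice, 2 of 8 members against 7.17% of all genes. Dusp6 was at 243 ± 18.0 TPM in GF isotype (SD, n = 10) and 188 ± 14.3 in SPF isotype (n = 6), and its groups did not overlap, as for 2.63% of tested genes in either direction. The difference was 0.37 (SE 0.11, adjusted p = 0.0445, limma). Dusp2 differed by 0.36 (SE 0.11, adjusted p = 0.0433), with 6 of 10 GF libraries above every SPF library. After median-of-ratios scaling neither was called: Dusp6 had 0.20 (adjusted p = 0.169) and Dusp2 0.20 (adjusted p = 0.470). The calls were also lost in 20 of 28 fits for Dusp6 and in 14 of 28 for Dusp2 when 1 library was left out, where 2.67 to 9.33% of all genes were called. Dusp10 was 0.53 higher (95% confidence interval 0.01 to 1.05, adjusted p = 0.185) and Dusp1 -0.15 (-0.58 to 0.28, adjusted p = 0.672). Of the markers of other cells, 3 of 4 tested stromal genes, 1 of 4 B and plasma cell genes and 1 of 4 mast and NK cell genes were lower in GF isotype, with 0 called in the other lists. Their part in these differences was not tested.

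Under aCD3, Dusp1, Dusp2, Dusp6 and Dusp10 were higher in GF than in SPF mice, 4 of 8 members against 53.3% of all genes. This comparison and those above share libraries, so their values are not independent. Dusp6 did not overlap, at 122 to 250 TPM in GF aCD3 against 86.7 to 94.0 TPM in SPF aCD3, as for 13.0% of tested genes in either direction. It was higher by 1.06 (SE 0.13, adjusted p = 1.43e-05, limma) and by 0.65 after median-of-ratios scaling. Dusp10 was higher by 1.48 (SE 0.29, adjusted p = 0.000601) and Dusp1 by 1.28 (SE 0.24, adjusted p = 0.000489). Dusp2 was higher by 0.58 in TPM (SE 0.13, adjusted p = 0.00105) and by 0.17 after median-of-ratios scaling (adjusted p = 0.301). Dusp11 was called lower on that scale, at -0.22 (adjusted p = 0.0110), against 0.19 in TPM. Without F1, M3 and M4, Dusp6 was the 1 member called, at 0.67 (SE 0.09, adjusted p = 0.000425). Dusp1 was then 0.59 (adjusted p = 0.0744) and Dusp10 0.54 (adjusted p = 0.0708). Between the aCD3 groups 2 of 4 tested myeloid genes were higher and 1 lower in GF mice, and 1 of 4 stromal, 1 of 8 epithelial and 1 of 4 mast and NK cell genes were called in each direction. Of B and plasma cell genes 1 of 4, and of erythroid genes the 1 tested, were higher. Their part was not tested.

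Sex, fitted across all libraries, called none of the 8 members, against 0.107% of all genes, with 1 of the 8 at an unadjusted p under 0.05. That was Dusp2, with a male minus female difference of -0.28 (unadjusted p = 0.00259, adjusted p = 0.627, limma). None was called by voom on recovered reads.

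Genes around the members in the MAP kinase pathway were counted from lists. In SPF mice 6 of 12 tested further dual-specificity phosphatases were lower under aCD3 and 0 higher, where 50.7% of all tested genes were lower and 14.2% higher, with a median of -0.34, next to -0.35 for all genes and -0.38 for the 8 members. Of the 21 listed, 9 did not pass the filter on low values. After median-of-ratios scaling 2 of the 12 were called lower and 0 higher, by limma, beside 3628 lower and 3679 higher of all 12182 genes. Dusp7, a cytoplasmic phosphatase of ERK related to Dusp6, went from 36.2 ± 5.39 to 23.2 ± 5.76 TPM and fell by 0.65 (adjusted p = 0.00331, limma). After median-of-ratios scaling it differed by -0.25 (adjusted p = 0.117). Ssh1, a cofilin phosphatase, fell by 0.67 (adjusted p = 0.000372), and its difference was -0.29 (adjusted p = 0.00838) after median-of-ratios scaling.

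Among the MAP kinases themselves 4 of 7 tested genes were lower and 1 higher, beside 50.7% and 14.2% of all genes, with a median of -0.30. After median-of-ratios scaling 1 was lower and 2 were higher, beside 3628 lower and 3679 higher of all 12182 genes. Mapk8, which encodes the kinase JNK1, went from 7.16 ± 1.12 to 3.01 ± 0.410 TPM and fell by 1.02 (adjusted p = 4.85e-06, limma). Mapk9, which encodes JNK2, fell by 0.38 (adjusted p = 0.00458), and Mapk14, the p38 alpha gene, by 0.31 (adjusted p = 0.0103). After median-of-ratios scaling Mapk8 had -0.69 and was still called, and Mapk9 had -0.0046 and Mapk14 0.06, neither called.

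Of the 19 kinases upstream of them 17 were lower and 1 higher, beside 50.7% and 14.2% of all genes, with a median of -0.63. After median-of-ratios scaling 10 were lower and 2 higher, beside 3628 lower and 3679 higher of all 12182 genes. Map3k14, the kinase NIK, fell by 2.24 (adjusted p = 6.20e-06, limma). Braf fell by 1.33 (adjusted p = 1.84e-05) and Map3k8, also called Tpl2, by 1.07 (adjusted p = 7.08e-05). Map2k3, which activates p38, rose by 0.48 (adjusted p = 0.00451). All 4 were also called after median-of-ratios scaling, Map3k14 at -1.93, Braf at -0.998, Map3k8 at -0.70 and Map2k3 at 0.87.

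The Ras arm had 9 of 15 genes lower and 2 higher, against the same 50.7% and 14.2%, with a median of -0.63. After median-of-ratios scaling 7 were lower and 5 higher, beside 3628 lower and 3679 higher of all 12182 genes. Rasgrp1, the diacylglycerol-activated exchange factor that loads Ras in T cells, went from 88.6 ± 12.9 to 18.4 ± 1.64 TPM and fell by 2.20 (adjusted p = 2.29e-06, limma). The exchange factors Sos1 and Sos2 fell by 0.92 and 0.91 (adjusted p = 0.000126 and 0.000213). Rasgrp2, an exchange factor for Rap1, rose by 0.91 (adjusted p = 0.000740), and Hras by 0.65 (adjusted p = 0.000198). These 5 were also called after median-of-ratios scaling, with Rasgrp1 at -1.80, Sos1 at -0.57, Sos2 at -0.56, Rasgrp2 at 1.32 and Hras at 1.05.

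Other inhibitors of the pathway had 8 of 16 tested genes lower and 1 higher, beside 50.7% and 14.2% of all genes, with a median of -0.38. After median-of-ratios scaling 6 were lower and 6 higher, beside 3628 lower and 3679 higher of all 12182 genes. The Sprouty genes Spry2 and Spry1 fell by 1.40 and 1.30 (adjusted p = 0.00238 and 0.000231, limma), and the tyrosine phosphatase gene Ptpn22 fell by 1.04 (adjusted p = 7.86e-05). Ptpn7, a tyrosine phosphatase of ERK in blood cells, rose by 0.38 (adjusted p = 0.00426). After median-of-ratios scaling Spry2 was at -1.08, Spry1 at -0.91, Ptpn22 at -0.63 and Ptpn7 at 0.79, and all 4 were called.

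Genes transcribed in response to MAP kinases had 12 of 22 tested members lower and 2 higher, beside 50.7% and 14.2% of all genes, with a median of -0.44. After median-of-ratios scaling 7 were lower and 7 higher, beside 3628 lower and 3679 higher of all 12182 genes. Fos went from 2635 ± 331 to 495 ± 53.5 TPM and fell by 2.41 (adjusted p = 3.35e-07, limma). Jun fell by 2.39 (adjusted p = 4.85e-07) and Junb by 2.33 (adjusted p = 5.06e-06); these 3 encode subunits of AP-1. Their differences were close in size to the 2.20 of Dusp1. Srf, the factor that binds CArG boxes, rose by 0.41 (adjusted p = 0.000491). After median-of-ratios scaling Fos was at -1.99, Jun at -1.97, Junb at -1.91 and Srf at 0.81, and all 4 were called.

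**Figure D5:**
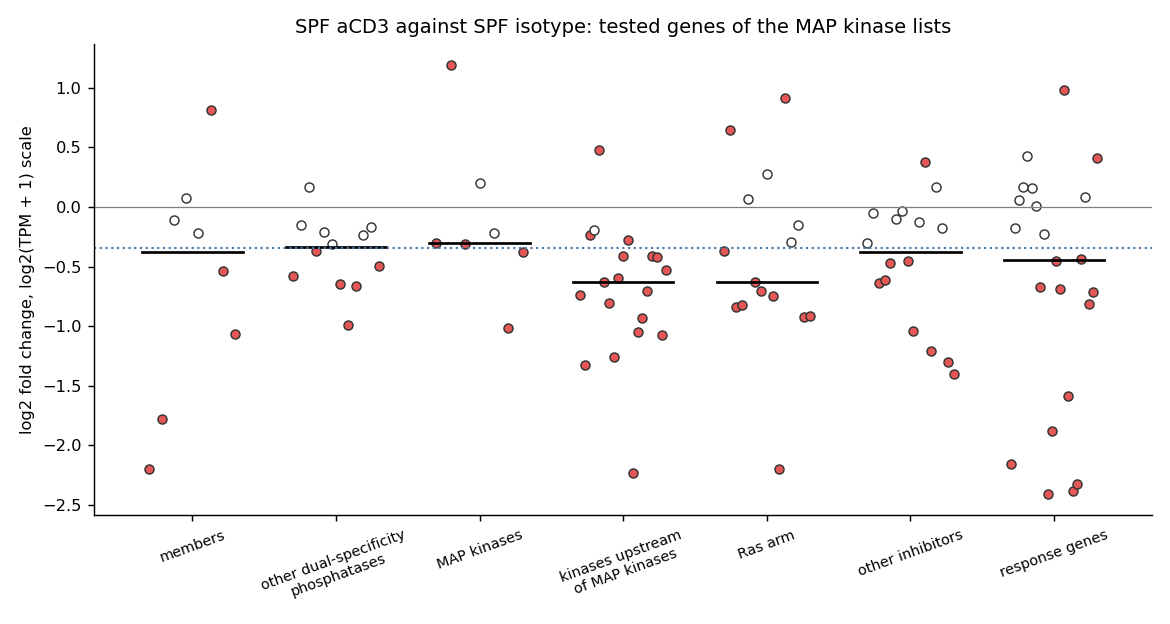
Log2 fold change of SPF aCD3 against SPF isotype (y axis, log2(TPM + 1) scale) for each tested gene of 7 lists (x axis); filled points passed limma's adjusted threshold, black bars are list medians and the dotted line is the median of all tested genes. The members reach from -2.20 to 0.82, and the medians of the upstream kinases and the Ras arm lie lowest, at -0.63 each.

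In GF mice the same lists had few calls with all 6 aCD3 libraries. Limma called 0 of 12 further dual-specificity phosphatases (3 at an unadjusted p under 0.05, and 0 called by voom) and 0 of 7 MAP kinases (4 at an unadjusted p under 0.05, and 0 called by voom). Of the upstream kinases 1 of 19 was lower, of the Ras arm 1 of 15, of the other inhibitors 1 of 16 and of the response genes 3 of 22, with 0 higher in each, beside 7.08% of all genes called. Rasgrp1 fell by 0.87 (adjusted p = 0.0484), Fos by 0.91 (adjusted p = 0.0481) and Jun by 0.83 (adjusted p = 0.0481). As for Dusp1 and Dusp6, these adjusted p-values lay just under the threshold. After median-of-ratios scaling 1 MAP kinase, 2 upstream kinases, 1 gene of the Ras arm and 1 other inhibitor were lower. Of the response genes 2 were then lower and 2 higher, beside 9.65% of all genes called. The lists were not counted without F1, M3 and M4, where 59.6% of all genes were called.

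Within groups, Pearson's r between members' deviations from the group mean, on the log2 scale over 22 libraries (GF aCD3 left out), ran from -0.34 for Dusp2 and Dusp16 to 0.69 for Dusp5 and Dusp10 over the 28 pairs. Dusp4 and Dusp5 had 0.57, Dusp4 and Dusp11 0.56, and Dusp1 and Dusp6 0.51. With median-of-ratios scaling the 28 pairs ran from -0.59 for Dusp2 and Dusp16 to 0.73 for Dusp1 and Dusp6. Dusp1 and Dusp11 went from 0.38 to 0.61, Dusp6 and Dusp16 from -0.054 to -0.45, and Dusp10 and Dusp11 from 0.30 to -0.11, so several values depended on the scale. These values are descriptions, since libraries share depth, composition and blocks of sample numbers.

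The genes most like each member in the same measure were picked from 7475 genes with a mean of at least 5 TPM. For Dusp1 they were Il9r (r = 0.87), Nebl (0.82) and Cxcl10 (0.79). For Dusp2 they were Npepl1 (0.82), Taf8 (0.81) and Sav1 (0.79). Dusp4 varied most closely with Klhl11 (0.89), Txnrd1 (0.87) and Mex3c (0.87), and Dusp5 with Vps37b (0.84), Aff1 (0.81) and Wipi2 (0.80). Dusp6 had the weakest likeness, with Scamp4 (0.78), Zbtb11os1 (0.74) and Cdk9 (0.72). Dusp10 was nearest to Tapt1 (0.87), Vrk1 (0.86) and Sec63 (0.86), and Dusp11 to Supt20 (0.86), Rbl2 (0.85) and Sfpq (0.84). Dusp16 was nearest to Ern1 (0.87), Nup98 (0.86) and Braf (0.86). No other member was among the 3 nearest genes of any member.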

How the data were processed

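Expression was measured by RNA sequencing of 28 libraries of sorted CD4+ T cells, grouped by the labels. The labels name a total RNA kit in the protocol and polyA RNA as the molecule, which was not settled. The authors deposited TPM per gene, computed with HOMER's analyzeRepeats.pl on mouse build mm10 with transcripts of a gene condensed, per the file headers. Aligned files bear the default output name of STAR. In 99.5% of rows the length equals the genomic span, so TPM was divided by exons and introns together. The submitters' processing notes name Cell Ranger 7.1.0, R 4.4.2 and Seurat 5.1.0 with no role. The table's 26 value columns that match no sample were not used, and no 2 libraries were identical.

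From these values, log2(TPM + 1) was fitted with limma 3.58.1 (R 4.3.3) for the 12182 genes that reached 1 TPM in 6 or more libraries. All 28 libraries entered a model with group means and sex, with moderation by a trend on mean expression. P-values were Benjamini-Hochberg adjusted over all genes within each comparison, with a threshold of 0.05. Log2 fold changes on this scale understate the change of low genes. Whole reads were recovered from the TPM steps (100% of the values checked whole within 0.1 of a read) and served for voom and levels per exon length. Levels per exonic kilobase take the reads as exonic, which the header does not state. Shared replicate names were checked for pairing by correlating deviations from group means; r was -0.21 to 0.20, so names were not taken as pairs. Alternatives were other pseudocounts, filters and scalings, voom, array weights, the replicate block, the block of sample numbers, and leaving out libraries; median of ratios combined with leaving out 3 libraries was added after the data were seen. Named pathway genes are the 3 highest and 3 lowest past the threshold in SPF mice with a mean of at least 5 TPM in either group. The method was tested on simulated SPF groups in which only a small set of genes changed. That setting lacks the broad shift of these data and the split of the GF aCD3 group. Python 3.11.15 with NumPy 2.4.6, pandas 2.3.3 and matplotlib 3.10.9 was used. The members and lists were chosen with earlier results of these data known.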

Additional observations from a re-analysis of the deposited data

Results flagged for a closer look

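The aCD3 difference in GF mice minus that in SPF mice passed limma's adjusted threshold for 2 members, Dusp1 (1.43, adjusted p = 0.0221) and Dusp6 (0.69, adjusted p = 0.0304). Dusp1 was 1329, 1245 and 688 TPM in GF aCD3 M1, M2 and M5 and at least 2214 TPM in F1, M3 and M4, against 588 to 832 TPM in SPF aCD3. Neither passed without F1, M3 and M4.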

How the results depend on the processing

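For the 8 members over 5 comparisons and Dusp2 for sex, 1679 values were computed under alternatives: 1417 kept their direction and their side of the threshold, 145 lost a call, 51 gained one and 66 changed direction. SPF aCD3 against SPF isotype called 5 members (64.8% of all genes), and 4 to 5 when each library was left out (61.0 to 66.2% of all genes). The same comparison called 4 with no filter on low values (41.3% of all genes), and 6 with median of ratios (60%) or voom (59%). GF aCD3 against GF isotype called 2, and 0 with a pseudocount of 0.1, without a low-value filter, with the groups compared alone, with the replicate block and within either block of sample numbers; of all genes, where the full set called 862, the first 4 of these settings called 0 and each block 1. It called 1 member without Rn45s and histone genes (1110 of all genes), 5 with array weights (3636 of all genes), 6 without F1, M3 and M4 (7259 of all genes, and also 6, with 6380 of all genes, by median of ratios), and 0 to 5 when each library was left out. The highest of these were 5 without M3 (4213 of all genes) and 4 without F1 (3630) or M4 (3859). Names do not pair the libraries, and the replicate block left 5 members called in SPF; it could not be fitted between GF and SPF or for sex. The difference of differences called 2 (424 of all genes), and 0 with the replicate block (17 of all genes) or without F1, M3 and M4 (6 of all genes; 23 with median of ratios), and 0 to 3 when each library was left out, 0 without GF aCD3 F1 (32 of all genes) and 3 without M1, M2 or M5 (2044, 2491 and 3187 of all genes). GF against SPF isotype called 2 (874 of all genes), and 0 with no filter (921 of all genes), median of ratios (204), quantile normalization (178) or voom (224), 5 with array weights (1904) or without the 3 libraries (2476), and 0 to 3 in leave-one-out fits. GF against SPF aCD3 called 4 (4 higher, 6496 of all genes), 4 with median of ratios (3 higher, 1 lower; 3988 of all genes), 6 with voom (3 higher, 3 lower; 4377), 5 with quantile normalization (4 higher, 1 lower; 3348), 1 without the 3 libraries (429 of all genes, 270 with median of ratios), and 4 to 5 in leave-one-out fits; sex called 0 throughout.

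Directions changed as follows. For SPF aCD3 against isotype, Dusp11 turned to 0.30 with median of ratios (with and without the 3 libraries), 0.25 without Rn45s and histone genes, 0.038 with quantile normalization and 0.31 with voom. Dusp2 turned to 0.19, 0.14 and 0.20 under median of ratios (also without the 3 libraries), no Rn45s and histone genes, and voom. For GF aCD3 against isotype, Dusp2 turned to 0.17, 0.16, 0.15 and 0.031 under these scalings and quantile normalization, 0.081 with the replicate block, 0.016 with the groups alone, 0.093 within numbers 25 to 33 and 0.31 with median of ratios without the 3 libraries. Dusp11 turned to 0.0032 and 0.0037 with median of ratios and voom. For GF against SPF aCD3, Dusp11 turned to -0.22 with median of ratios, -0.018 without Rn45s and histone genes, -0.027 with quantile normalization, -0.23 with voom, and -0.052 and -0.23 without the 3 libraries in TPM and median of ratios. Dusp5 turned to -0.22 and -0.40 without them, and Dusp16 to 0.13. For the difference of differences, Dusp2 turned to -0.026 and -0.043 with median of ratios and voom, Dusp16 to -0.011 and -0.033 with median of ratios and quantile normalization, Dusp10 to -0.0062 with median of ratios without the 3 libraries, and Dusp5 to 0.087 with the replicate block. Dusp1 in GF against SPF isotype turned to 0.093 with quantile normalization. Leaving out 1 library gave both signs for Dusp16 in SPF (-0.015 to 0.18) and between aCD3 groups (-0.23 to 0.015), for Dusp2 in GF (-0.044 to 0.035), and in the difference of differences for Dusp5 (-0.15 to 0.17) and Dusp11 (-0.12 to 0.019). The cause of each change was not tested. The block of sample numbers as a covariate called 3 members in GF (2215 of all genes).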

Other observations

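Dusp4 under aCD3 in SPF mice ran from 42.5 to 48.9 TPM in the 3 female libraries and from 27.4 to 31.3 TPM in the 3 male libraries. In SPF isotype the females had 13.3, 26.5 and 13.8 TPM and the males 18.3, 26.7 and 28.2 TPM. A sex difference within the aCD3 group was not tested, and 3 against 3 libraries cannot reach 0.05 in an exact two-sided test.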
